A study of Mus musculus with 8 samples.

Results

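Endothelial cells line the blood vessels of brown adipose tissue, and 10 genes that mark them were followed: Pecam1, Cdh5, Esam, Cldn5, Emcn, Kdr, Flt1, Tek, Tie1 and Eng. They were chosen by name as established markers. For each symbol the transcript row with the highest total count stood for the gene, so that 10 of 23372 genes were taken, and all 10 were among the 14178 genes with enough counts to test. The tissue came from mice aged 10 weeks on a C57BL/6 N background. The KO mice carried floxed Lsd1 alleles and a Ucp1-Cre transgene, which drives recombination from the promoter of a brown adipocyte gene, and gave 4 libraries (numbers 512, 513, 515 and 516). The control mice were described as floxed Lsd1 only and gave 4 libraries (numbers 511, 514, 517 and 518), so that loss of Lsd1 and presence of Cre cannot be told apart. Lsd1 is a histone demethylase encoded by Kdm1a. The comparison asks how vascular transcripts differ after a deletion whose Cre promoter marks a different cell type. The labels number the libraries but do not state that each came from its own animal, so the p-values speak only of the spread among these samples, which may be technical.

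As background, brown fat is among the most densely vascularised tissues, and its capillaries deliver oxygen and fatty acids to the thermogenic cells and carry heat away. Endothelial cells are held together by adherens junctions, built on VE-cadherin (Cdh5), and by tight junctions, built on claudins such as Cldn5. They are kept alive by VEGF signalling through Kdr and Flt1, stabilised by angiopoietin signalling through Tek and Tie1, and tuned by BMP and TGF-beta ligands through the co-receptor endoglin (Eng).

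Levels are given as CPM, the count of a gene scaled to a common library size with TMM factors. Fold changes are log2 of KO over control, and the SE printed with them is approximate. Adjusted p-values are from edgeR's quasi-likelihood test over all 14178 genes with Benjamini-Hochberg adjustment, and a gene is said to have changed where that value was under 0.05. The libraries held 33011022 to 38756920 counts over all rows. Kdm1a was lower in all KO libraries, at 13.1 ± 0.711 CPM in KO and 35.4 ± 1.52 CPM in control tissue (SD, n = 4 each). Ucp1, the defining gene of thermogenic brown adipocytes, stood at 1377 ± 161 CPM in KO and 4481 ± 1200 CPM in control tissue (SD, n = 4 each). The libraries also differed in markers of other cell types. The summed level of 18 skeletal muscle markers was 9104 to 19822 CPM in KO and 369 to 7952 CPM in control libraries, and none of the 18 was at 0 in all libraries. Of the 18, edgeR called 2 higher, where 15.4% of all genes were called higher. It called 0 without KO 512, KO 513, KO 515, control 511 or control 517, and 1 without KO 516. It called 4 without control 518 (15.8% of all genes) and 17 without control 514 (14.6% of all genes). Of the 18, limma-voom called 18, where it called 17.5% of all genes higher. The sum of 12 adipocyte markers was 18567 to 20880 CPM in KO and 25930 to 33879 CPM in control libraries. It includes Ucp1, and Fabp4 at a mean of 6024 CPM in KO and 10003 CPM in control tissue. Of the 12, edgeR called 6 lower, but not Adipoq, Plin1 or Plin4, named outside the rule (adjusted p = 0.203, 0.068 and 0.933). Of all genes 18.9% were called lower. The sum of 14 macrophage and leukocyte markers was 218 to 330.3 CPM in KO and 126 to 239.7 CPM in control libraries. In whole tissue, more or fewer cells of a type and more or less RNA per cell cannot be told apart.

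Of the 10 endothelial markers, 2 rose in KO tissue, 0 fell and 8 did not pass the test. The risers were Esam and Cldn5, both proteins of the cell-cell junction, which were 1.73-fold and 1.45-fold higher in KO. Of all tested genes 15.4% were called higher and 18.9% lower, together 34.4%. At an unadjusted p under 0.05 edgeR had 3 markers higher (Esam, Cldn5 and Pecam1) and 2 lower (Kdr and Flt1). The share of all genes at an unadjusted p under 0.05 is not given, here or below, and is at least the 34.4% called. DESeq2 and limma-voom with sample weights each called 2 higher and 1, Flt1, lower. In the same order they called 18% and 17.5% of all genes higher, and 20.1% and 20% lower. For 3 markers (Esam, Cldn5 and Flt1) the KO and control CPM were fully separated, as they were for 35.5% of all tested genes. The fitted changes of the markers were split evenly, with 5 above and 5 below 0, and their median was 0.09, beside a median of -0.01 over all tested genes. The summed level of the 10 markers was 1532 ± 99.0 CPM in KO and 1433 ± 84.3 CPM in control tissue (SD, n = 4 each), and the ranges overlapped (1394 to 1621 CPM in KO, 1351 to 1533 CPM in control libraries).

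**Figure D1:**
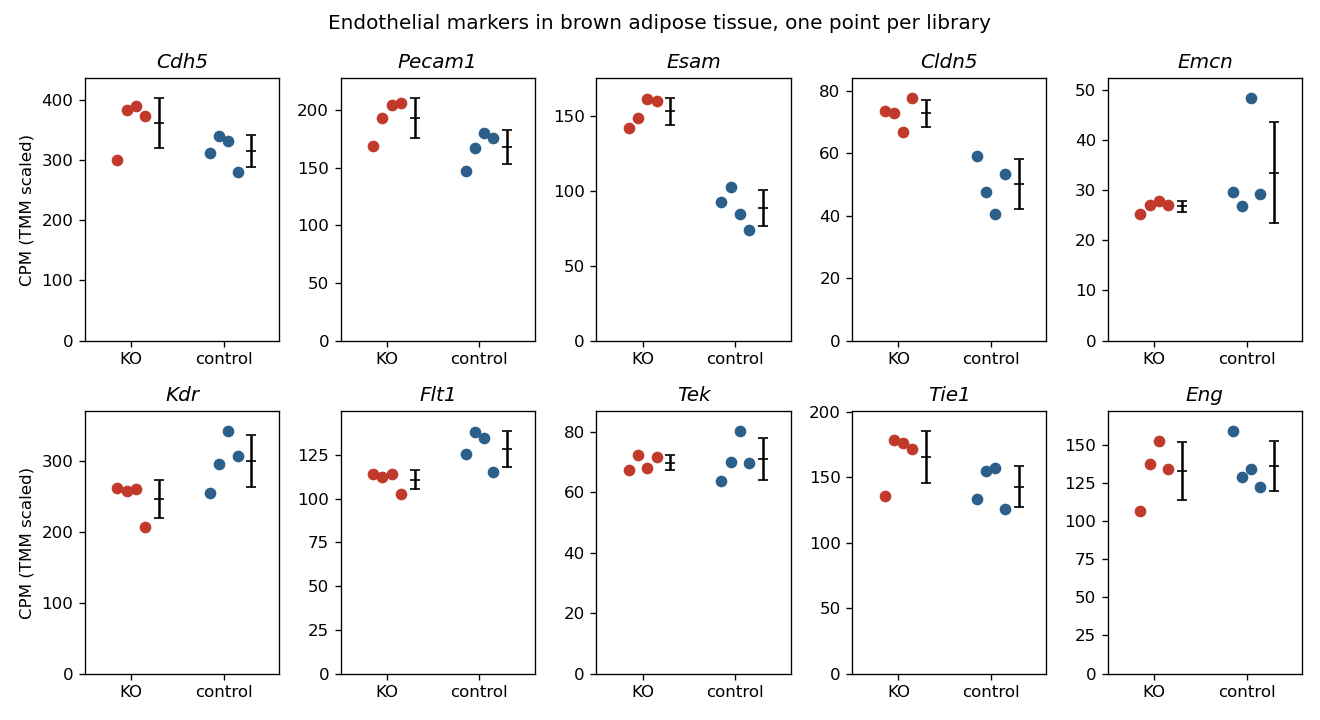
CPM of the 10 endothelial markers (vertical axes, from 0) in each KO and control library (points), with the group mean and SD (n = 4) beside them. Esam and Cldn5 stand higher in every KO library than in any control library, Flt1 stands slightly lower, and the groups overlap for the other 7 genes.

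Esam encodes an immunoglobulin-type adhesion molecule of endothelial tight junctions (chromosome 9, 37528089 to 37538319, plus strand, mm10). Its KO libraries held 142, 149, 161 and 159.8 CPM, against 92.3, 102, 84.5 and 74.0 CPM in the control libraries. Every KO library was higher than every control library, and the lowest KO library exceeded the highest control library by more than the SD of either group. The means were 153 ± 9.13 CPM in KO and 88.3 ± 12.0 CPM in control tissue (SD, n = 4 each), a change of 0.79 on the log2 scale (SE 0.101) with an edgeR adjusted p of 0.000733. Esam was called under all 16 alternatives, with log2 fold changes of 0.74 to 0.99 and adjusted p-values of 1.11e-12 to 0.00372.

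Cldn5 encodes claudin-5, a strand-forming protein of endothelial tight junctions (chromosome 16, 18776847 to 18778262, plus strand). It held 73.5, 73.0, 67.0 and 77.8 CPM in the KO libraries, against 59.3, 47.6, 40.6 and 53.4 CPM in the control libraries. The groups did not overlap, and control 517 was the lowest library. The means were 72.8 ± 4.46 CPM in KO and 50.2 ± 7.99 CPM in control tissue (SD, n = 4 each), a change of 0.54 on the log2 scale (SE 0.112) with an edgeR adjusted p of 0.00692. With the skeletal muscle score as a covariate the change was 0.47 and the call ended (adjusted p = 0.0568), and it held under the other 15 alternatives (adjusted p of 8.52e-05 to 0.0235). The SE of Cldn5 in the muscle fit was 0.152. Summed muscle markers were higher in every KO library than in any control library, so that fit cannot cleanly separate muscle content from KO.

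The other adhesion molecules did not pass. Cdh5, VE-cadherin, the adherens junction cadherin of endothelium (chromosome 8, 104101625 to 104144502, plus strand), held 299, 383, 389 and 373 CPM in KO libraries, against 311, 339, 331 and 279 CPM in control libraries. Pecam1, a homophilic adhesion receptor also found on platelets and leukocytes (chromosome 11, 106654218 to 106715281, minus strand), held 169, 193, 204 and 206 CPM in KO libraries, against 147, 167, 180.2 and 176 CPM in control libraries. In both genes 3 KO libraries stood above all control libraries, and KO 512 stood among the controls. The log2 fold changes were 0.20 (SE 0.102, edgeR adjusted p = 0.161) for Cdh5 and 0.21 (SE 0.0908, edgeR adjusted p = 0.108) for Pecam1. Without KO 512 Cdh5 passed (0.27, edgeR adjusted p = 0.042), where 13.2% of all genes were called higher, and Pecam1 did not (0.26, edgeR adjusted p = 0.0508).

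Emcn encodes endomucin, a sialomucin of capillary and venous endothelium (chromosome 3, 137341078 to 137431069, plus strand). It held 25.2, 27.0, 27.7 and 27.0 CPM in the KO libraries, against 29.6, 26.7, 48.4 and 29.1 CPM in the control libraries. The KO libraries lay within a narrow band, and control 517 stood far above the other control libraries. Emcn's log2 change was -0.32 with an SE of 0.174 (edgeR adjusted p = 0.179), and without control 517 it was -0.09 (edgeR adjusted p = 0.376).

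The receptors for VEGF had negative fold changes that did not pass the test. Kdr, the main signalling receptor for VEGF-A (chromosome 5, 75933270 to 75978428, minus strand), held 261, 257, 259.7 and 206 CPM in KO libraries, against 254, 295, 342 and 307 CPM in control libraries. Flt1, a paralog that binds VEGF-A, VEGF-B and PlGF and also gives a soluble decoy form (chromosome 5, 147562196 to 147725988, minus strand), held 114, 112, 114 and 103 CPM in KO libraries, against 126, 138, 134 and 115 CPM in control libraries. KO 516 was the lowest library for both genes, the groups overlapped for Kdr, and for Flt1 they were separated by less than 1 CPM. The means of Kdr were 246 ± 26.6 CPM in KO and 299.6 ± 36.1 CPM in control tissue, and those of Flt1 111 ± 5.58 CPM in KO and 128 ± 10.3 CPM in control tissue (SD, n = 4 each). Their log2 fold changes were -0.28 (SE 0.11, edgeR adjusted p = 0.0731) and -0.21 (SE 0.0751, edgeR adjusted p = 0.0551).

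Flt1 lay on either side of the threshold. It was called lower by DESeq2 (-0.20, adjusted p = 0.0428), by limma-voom with sample weights (-0.23, adjusted p = 0.0266) and by edgeR without control 518 (-0.24, adjusted p = 0.0298), where 16% of all genes were called lower. With library sizes alone its change was -0.01 (edgeR adjusted p = 0.912). Kdr passed in edgeR without control 511 (-0.36, adjusted p = 0.0307), where 18.5% of all genes were called lower. The ratio of Flt1 to Kdr, in CPM per kilobase of transcript, needs no scaling between libraries. It was 0.393 ± 0.0258 in KO and 0.375 ± 0.0496 in control tissue (SD, n = 4 each; exact permutation test, two-sided, p = 0.514). This ratio and that of Tie1 to Tek were chosen after the values were seen, and the soluble form of Flt1 was not separated.

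The angiopoietin receptors also did not pass. Tek, the receptor for angiopoietins (chromosome 4, 94739300 to 94874939, plus strand), held 67.5, 72.3, 68.1 and 71.7 CPM in KO libraries, against 63.7, 69.9, 80.4 and 69.8 CPM in control libraries. Tie1, its orphan partner (chromosome 4, 118471191 to 118489849, minus strand), held 136, 178, 176 and 171 CPM in KO libraries, against 134, 155, 157 and 126 CPM in control libraries. Tek overlapped fully, with all KO libraries inside the control range, while for Tie1 all KO libraries but KO 512 stood above the controls. The log2 fold changes were -0.02 (SE 0.0784, edgeR adjusted p = 0.854) for Tek and 0.21 (SE 0.109, edgeR adjusted p = 0.159) for Tie1. Without KO 512 Tie1 passed (0.29, edgeR adjusted p = 0.0466). The ratio of Tie1 to Tek, in CPM per kilobase, was 2.84 ± 0.299 in KO and 2.43 ± 0.211 in control tissue (SD, n = 4 each; exact permutation test, two-sided, p = 0.0857, where the smallest possible p is 0.0286).

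Eng, endoglin, a co-receptor for BMP and TGF-beta ligands (chromosome 2, 32646595 to 32682669, plus strand), held 107, 137, 153 and 134 CPM in KO libraries, against 159, 129, 135 and 122 CPM in control libraries. The groups overlapped, with KO 512 the lowest and control 511 the highest of all libraries. Eng's log2 change was -0.04 with an SE of 0.12 (edgeR adjusted p = 0.832). The signs of Eng and of Tek turned with the scaling: with upper quartile factors they were 0.07 and 0.08, and with library sizes alone 0.17 and 0.18, none of them called.

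**Figure D2:**
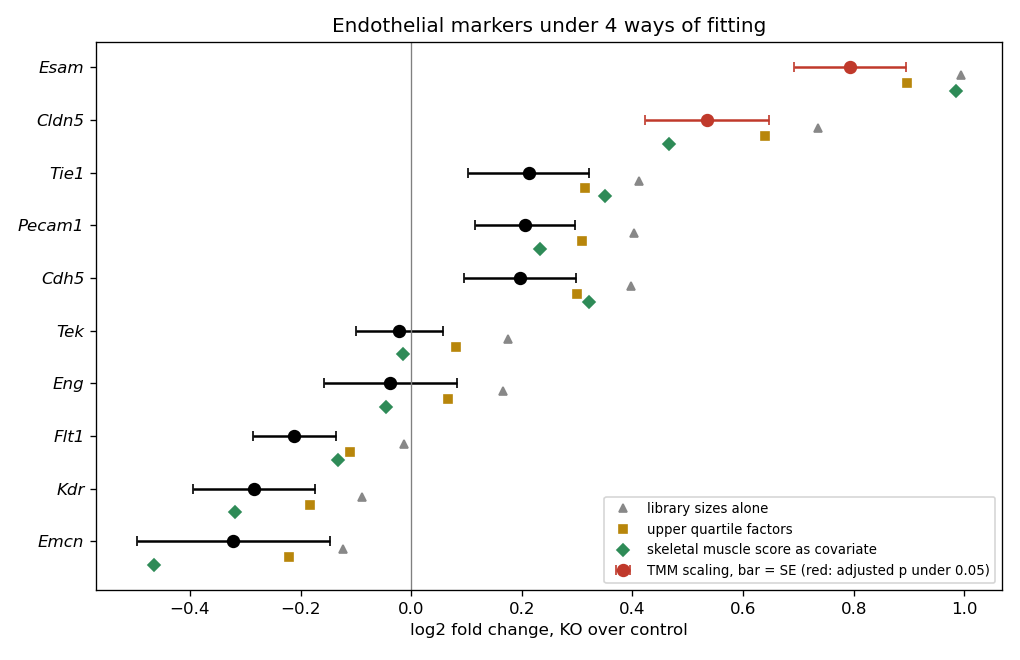
Log2 fold change of KO over control (horizontal axis) for each endothelial marker with TMM scaling (circles with SE bars, red where called) and under 3 alternatives. Esam and Cldn5 stay well above 0 in all 4 fits, Flt1, Kdr and Emcn stay below it, and Tek and Eng cross it.

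Scaling between libraries moved all genes together, so it bears on each of these values. TMM factors gave 2189 genes higher and 2682 lower, upper quartile factors 2915 higher and 1625 lower, and library sizes alone 4077 higher and 930 lower. The median over all tested genes was -0.01, 0.09 and 0.19 in the same order. With library sizes alone 5 of the 10 markers were called higher, namely Esam, Cldn5, Pecam1, Cdh5 and Tie1, and 0 lower, where 28.8% of all genes were called higher and 6.56% lower. With upper quartile factors Pecam1 joined Esam and Cldn5 (0.31, edgeR adjusted p = 0.0354), where 20.6% of all genes were called higher. With the muscle score as a covariate 1 marker, Esam, was called, where 9.79% of all genes were called higher. Since the summed muscle markers separated KO from control libraries, a call lost in this fit, here or below, does not separate muscle content from KO.

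A comparison within the marker set avoids that scaling. Each gene's log2 CPM was set against the mean log2 CPM of the 10 markers in the same library, which gives relative values that sum to 0 and carry no test. Esam lay at 0.30 ± 0.0565 in KO and -0.38 ± 0.186 in control libraries, and Flt1 at -0.16 ± 0.115 in KO and 0.16 ± 0.0716 in control libraries (SD, n = 4 each). Emcn lay at -2.21 ± 0.0211 in KO and -1.82 ± 0.330 in control libraries. For these 3 genes the KO and control libraries were fully separated on this measure, as they were for 34.9% of all tested genes. The mean log2 CPM of the markers was 6.95 in KO and 6.84 in control libraries, so that a relative value is 0.11 lower in KO for a gene of equal CPM. Without control 517 the gap of Emcn was -0.24, against -0.39 with it, while that of Esam was 0.64 to 0.76 and that of Flt1 -0.37 to -0.28 with any 1 library left out. Cldn5 lay at -0.77 ± 0.139 in KO and -1.20 ± 0.302 in control libraries, with KO 515 below control 511. Kdr lay at 0.98 ± 0.191 in KO and 1.38 ± 0.149 in control libraries, overlapping by a small margin.

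**Figure D3:**
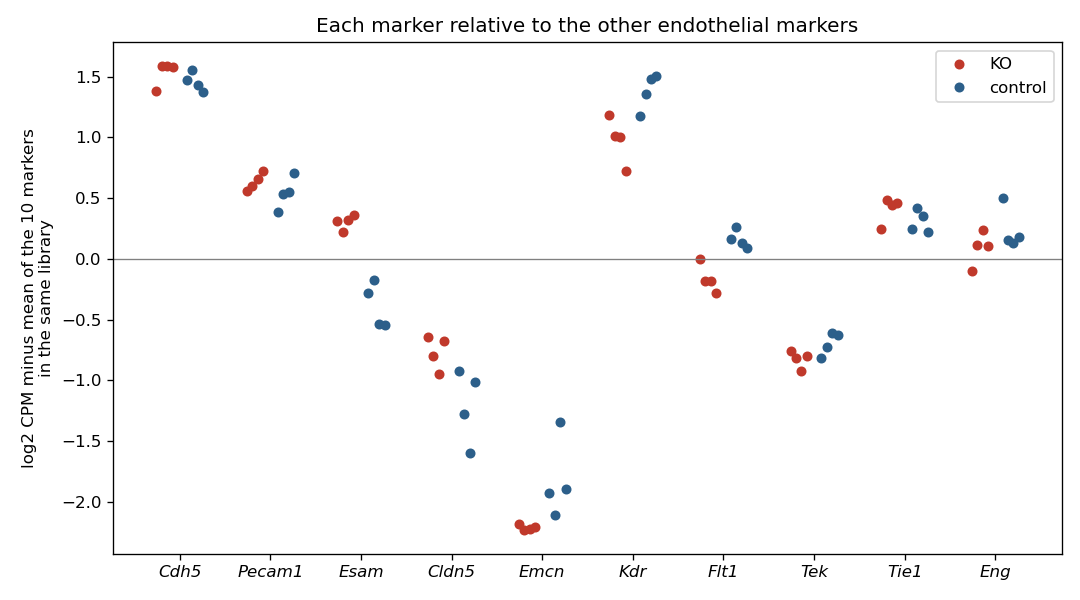
Log2 CPM of each marker minus the mean of the 10 markers in the same library (vertical axis), for KO and control libraries (points). Esam is higher and Flt1 and Emcn are lower in all KO libraries than in any control library, while the other 7 genes overlap.

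The order of abundance, which needs values per transcript length, was headed by Cdh5 in both groups and closed by Tek. Cdh5 stood at 91.2 ± 10.5 CPM per kilobase in KO and 79.5 ± 6.70 in control tissue, and Tek at 15.2 ± 0.533 in KO and 15.4 ± 1.51 in control tissue (SD, n = 4 each). In KO tissue the order was Cdh5, Esam, Pecam1, Cldn5, Kdr, Tie1, Eng, Emcn, Flt1 and Tek. Neighbours in that order overlapped between libraries except Esam with Pecam1, Eng with Emcn, and Flt1 with Tek. In control tissue the order was Cdh5, Kdr, Pecam1, Esam, Eng, Tie1, Cldn5, Emcn, Flt1 and Tek, and all neighbours overlapped except Cdh5 with Kdr and Flt1 with Tek. Esam thus ranked 2 in KO and 4 in control tissue, Cldn5 ranked 4 in KO and 7 in control tissue, and Kdr ranked 5 in KO and 2 in control tissue. Exons of the 10 genes shared no bases with another gene in the GENCODE annotation of the same build, except 1.51% of Eng's, which lie opposite Fpgs.

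The libraries of a group also differed among themselves. KO 512 was the lowest KO library for 7 of the 10 markers, and control 518 the lowest control library for 5, while control 517 was the highest control library for 5. The summed skeletal muscle markers were highest in KO 512, at 19822 CPM, and lowest in control 514, at 369 CPM, and their part in these differences was not tested. Deviations from the group means moved together for some markers: over the 8 libraries, each gene's deviation correlated with the mean of the other 9 at r = 0.907 for Tie1 and r = 0.854 for Cdh5, and at r = 0.0059 for Kdr and r = -0.755 for Cldn5. Esam was at r = 0.264. Outside all the lists used here, the genes with deviations most like the mean of the markers were Zbtb33 (r = 0.978), Vav3 (0.965), Canx (0.964), Plxnb1 (0.955) and Lrrc51 (0.950), the highest of 10580 genes with at least 5 CPM over 8 libraries. These are descriptions over few libraries that share their scaling.

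The authors' deposited table gave the same pair of genes an FDR under 0.05. In the authors' deposited table Esam had a log2 fold change of 0.78 (FDR 2.45e-06) and Cldn5 one of 0.52 (FDR 0.00442). The authors' deposited table gave Flt1 an FDR of 0.273, Kdr one of 0.162 and Emcn one of 0.213. In the authors' deposited table a share of 9.29% of all rows had an FDR under 0.05 and a higher value in KO, and 8.15% a lower one.

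Promoter sequence is shown for Cldn5, which rose, and for Kdr and Flt1, the paralogous receptors with negative changes, since ETS family factors are known regulators of endothelial genes. RefSeq windows (GRCm38.p6) were found for 7 of the 10 markers. The 250 bases before the start site are given 5′ to 3′ on the strand of the gene, at chr16:18776597-18776846 for Cldn5, chr5:75978456-75978705 (minus strand) for Kdr and chr5:147726012-147726261 (minus strand) for Flt1. Capitals mark matches, on either strand, to the letters CCGGAA, which are an ETS core, to the second ETS core searched, AGGAAG, to the GC box with the letters GGGCGG, to the GATA motif with the letters AGATAA, and to the TATA box with the letters TATAAA.
Cldn5: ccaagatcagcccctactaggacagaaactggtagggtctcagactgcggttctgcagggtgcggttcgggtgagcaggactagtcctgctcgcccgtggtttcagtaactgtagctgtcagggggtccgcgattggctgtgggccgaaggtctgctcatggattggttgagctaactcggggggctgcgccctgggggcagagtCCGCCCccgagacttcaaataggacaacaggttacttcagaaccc
Kdr: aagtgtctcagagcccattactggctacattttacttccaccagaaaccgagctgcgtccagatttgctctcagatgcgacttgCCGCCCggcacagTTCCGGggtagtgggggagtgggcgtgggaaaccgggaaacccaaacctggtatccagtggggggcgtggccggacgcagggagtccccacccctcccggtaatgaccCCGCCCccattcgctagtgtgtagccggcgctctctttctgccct
Flt1: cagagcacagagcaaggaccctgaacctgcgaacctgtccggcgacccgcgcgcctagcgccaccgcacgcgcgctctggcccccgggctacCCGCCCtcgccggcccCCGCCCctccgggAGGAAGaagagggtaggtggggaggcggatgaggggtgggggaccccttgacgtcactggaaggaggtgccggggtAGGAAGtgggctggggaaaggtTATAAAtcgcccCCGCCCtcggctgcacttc
The Cldn5 window held a single match, a GC box on the opposite strand. The Kdr window held CCGGAA and 2 GC boxes, all on the opposite strand, and the Flt1 window held AGGAAG at 2 places, 3 GC boxes on the opposite strand and a TATA box. Of the 7 marker windows 4 held AGGAAG (Emcn, Eng, Flt1 and Tie1), beside 29.5% of 32851 windows in the genome, and 1 held CCGGAA, beside 12.0%. GGGCGG was found in 3 (Cldn5, Flt1 and Kdr), beside 32.7%, and AGATAA in 0, beside 9.99%. A match is only these letters in the window.

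Further genes of the endothelium were read for context. The counts of every list below stand beside 15.4% of all tested genes called higher and 18.9% lower. With library sizes alone these shares were 28.8% and 6.56%, and with upper quartile factors 20.6% and 11.5%. With a library left out they were 10.7% to 15.8% and 13.3% to 18.5%. Of 30 other pan-endothelial genes 6 rose and 1 fell in KO tissue, with a median log2 fold change of 0.09. Cd34, a sialomucin of capillary endothelium that adipocyte progenitors also carry, held 66.9, 88.2, 105 and 95.5 CPM in KO libraries, against 51.8, 55.5, 43.6 and 49.6 CPM in control libraries. All KO libraries of Cd34 were above all control libraries (0.83 on the log2 scale with an SE of 0.136, edgeR adjusted p = 0.00227). The other risers were Ecscr, a regulator of endothelial migration (0.34, adjusted p = 0.0313), Rasip1, a Ras-interacting protein of vessel lumen formation (0.40, adjusted p = 0.0314), and, outside the naming rule, Cd93 (0.36, adjusted p = 0.0315), the fenestral diaphragm gene Plvap (0.32, adjusted p = 0.0321) and the ETS factor gene Erg (0.32, adjusted p = 0.0355), all by edgeR. Cyyr1 fell (-0.55, edgeR adjusted p = 0.0305). Vwf, von Willebrand factor, and Nos3, the endothelial nitric oxide synthase, also outside the rule, had log2 fold changes of 0.21 (edgeR adjusted p = 0.137) and 0.08 (edgeR adjusted p = 0.617).

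That count fell when some single libraries were left out, as did the share of all genes called higher. Without KO 513, KO 515, KO 516, control 511 or control 517 the number that rose was 2, 1, 2, 3 and 2. In the same order 10.7%, 11%, 10.9%, 14.7% and 13.1% of all genes were called higher, beside 15.4% with all libraries. With library sizes alone the number of pan-endothelial genes that rose was 13, where 28.8% of all genes were called higher. The edgeR call of Ecscr ended without KO 513, KO 515, KO 516, control 514 or control 517 (adjusted p of 0.0623 to 0.0882) and with the muscle score (0.127), that of Rasip1 without KO 513, KO 515, KO 516 or control 517 (0.0699 to 0.0864), and that of Cyyr1 without KO 513, KO 515, KO 516, control 517 or control 518 (0.052 to 0.0736) and with upper quartile factors (0.0636) or library sizes alone (0.132). Cd34 was called under all 16 alternatives.

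Among vessel types, the largest fold change was in the venous endothelium list. There 2 of 9 genes rose and 1 fell (median 0.25), or 5 and 0 with library sizes alone. Of all genes 15.4% were called higher and 18.9% lower, or 28.8% and 6.56% with library sizes alone. The risers were Sele and Vcam1, both leukocyte adhesion genes. Selp, Ackr1, Nrp2, Ephb4, Aplnr and Nr2f2 did not pass the test (edgeR adjusted p of 0.102 to 0.596). Their log2 fold changes were 0.66, 0.57, 0.25, 0.23, 0.18 and 0.08, and all but Selp are named outside the rule. Sele, E-selectin, which captures leukocytes on activated endothelium, held 10.2, 7.22, 6.31 and 9.42 CPM in KO libraries, against 0.234, 0.878, 1.14 and 1.02 CPM in control libraries. The lowest KO library was several times the highest control library. Sele differed by 3.34 on the log2 scale with an SE of 0.367 (edgeR adjusted p = 0.000456), and it was called under all 16 alternatives. Vcam1, a leukocyte adhesion molecule also made by other stromal cells, held 16.0, 12.6, 14.4 and 16.9 CPM in KO libraries, against 5.85, 6.70, 11.1 and 9.69 CPM in control libraries. The groups did not overlap for Vcam1 (0.85, edgeR adjusted p = 0.0127), and its call ended with the muscle score as a covariate (adjusted p = 0.105). Lrg1, a secreted modulator of TGF-beta signalling that other cells also make, fell (-0.63, edgeR adjusted p = 0.0104), except with library sizes alone (adjusted p = 0.0503). Macrophage and leukocyte markers were higher beside these genes, with 5 of 14 called higher (median 0.56), 1 to 3 without KO 513, KO 515, KO 516, control 514 or control 518, 10 with library sizes alone and 1 with the muscle score. Of all genes 15.4% were called higher, 28.8% with library sizes alone and 9.79% with the muscle score. The part of macrophages and leukocytes in the result was not tested.

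Of 12 arterial genes 2 rose and 0 fell (median 0.22), and 4 rose with library sizes alone. Of all genes 15.4% were called higher, and 28.8% with library sizes alone. Notch1, a receptor of arterial specification, held 91.2 ± 5.68 CPM in KO and 72.5 ± 10.3 CPM in control tissue (SD, n = 4 each; log2 fold change 0.33, edgeR adjusted p = 0.0356), and Sema3g, a secreted semaphorin, had a change of 0.36 (edgeR adjusted p = 0.0463). The edgeR call of Notch1 ended without any 1 of the KO libraries, control 511 or control 517 (adjusted p of 0.0574 to 0.0973), and that of Sema3g without KO 513, KO 515, KO 516, control 517 or control 518 (0.0693 to 0.123), with no filter on low counts (0.0592) and with the muscle score (0.0703). Efnb2, Gja4, Dll4, Nrp1 and Bmx, outside the rule, had log2 fold changes of 0.04, 0.05, 0.05, 0.07 and -0.10. Jag2 and Hey1 had ones of 0.41 and 0.29, and Notch4, Unc5b and Gja5, outside the rule, ones of 0.29, 0.24 and 0.21. None of these passed (edgeR adjusted p of 0.0707 to 0.892). Of 8 lymphatic genes 7 were tested, and 0 rose or fell by edgeR (median 0.17), with 1 higher and 0 lower at an unadjusted p under 0.05. That gene was Thy1, also found on stromal cells and named within the rule, which DESeq2 and limma-voom called higher (0.55 and 0.64, adjusted p = 0.0456 and 0.0445), as did edgeR with library sizes alone (0.0281), without KO 512 (0.0334) and without control 517 (0.0399). Flt4, the VEGF-C receptor of lymphatic vessels, held 20.9 ± 2.43 CPM in KO and 19.3 ± 2.21 CPM in control tissue (SD, n = 4 each), and Prox1, the master regulator of lymphatic identity, was too low to test.

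**Figure D4:**
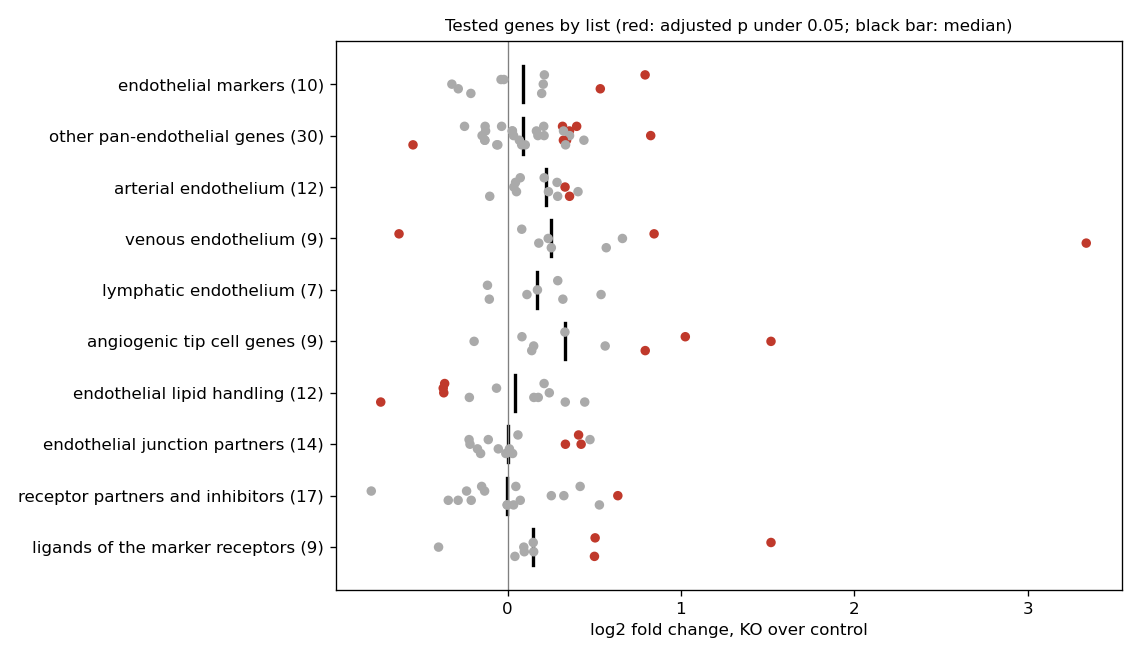
Log2 fold change of KO over control (horizontal axis) for each tested gene of the endothelial lists (points, red where called, number tested in brackets) with the median of each list (black bar). Sele stands farthest to the right at 3.34, and the medians of the 10 lists shown lie between -0.00 and 0.33.

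Of 10 tip cell genes, which mark sprouting vessels, 9 were tested, 3 rose and 0 fell (median 0.33), and 5 rose with library sizes alone. Of all genes 15.4% were called higher, and 28.8% with library sizes alone. Pgf, placental growth factor, a ligand of Flt1, held 1.44, 2.03, 3.75 and 1.72 CPM in KO libraries, against 1.17, 0.998, 0.396 and 0.528 CPM in control libraries. The groups did not overlap, and KO 515 was the highest library (log2 fold change 1.52, edgeR adjusted p = 0.0201). Without KO 515 the change was 1.15 and the edgeR call ended (adjusted p = 0.0531). Plaur, the urokinase receptor, and Adm, adrenomedullin, rose by 1.03 and 0.79 on the log2 scale (edgeR adjusted p = 0.0329 and 0.0354). The edgeR call of Plaur ended without any 1 of the KO libraries, control 514 or control 518 (adjusted p of 0.0511 to 0.0865) or with the muscle score (0.111), and that of Adm without any 1 of the KO libraries, control 511, control 517 or control 518 (0.0538 to 0.0876). Angpt2, named outside the rule as a ligand of Tek, had a change of 0.15 (edgeR adjusted p = 0.612). Apln, Cxcr4, Kcne3 and Mcam, also outside the rule, had changes of -0.19, 0.08, 0.33 and 0.14, and Nid2 one of 0.56. None of these passed (edgeR adjusted p of 0.093 to 0.854), and Esm1 was too low to test.

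Of 12 ligands of the marker receptors 9 were tested, 3 rose and 0 fell (median 0.15), where 15.4% of all genes were called higher. Besides Pgf these were Tgfb3 (0.50, edgeR adjusted p = 0.0151) and Tgfb1 (0.51, edgeR adjusted p = 0.0295), both ligands of receptor complexes that include endoglin. With the muscle score as a covariate neither passed (edgeR adjusted p = 0.127 and 0.101), and the call of Tgfb1 also ended without KO 513, KO 515, KO 516 or control 514 (0.0591 to 0.0738). Vegfa, the main ligand of Kdr and named outside the rule, held 720.1 ± 26.9 CPM in KO and 674 ± 65.1 CPM in control tissue (SD, n = 4 each; log2 fold change 0.10, edgeR adjusted p = 0.391). Angpt1, the activating ligand of Tek, had a change of 0.04 (edgeR adjusted p = 0.809). Bmp10 had no count in any library, and Gdf2 had none in the control libraries. Of 17 receptor partners and inhibitors 1 rose and 0 fell, while 5 rose with library sizes alone, 2 with upper quartile factors or DESeq2 and 3 without KO 512. Of all genes 15.4% were called higher, 28.8% with library sizes alone, 20.6% with upper quartile factors, 18% with DESeq2 and 13.2% without KO 512. Of these 17, 2 fell without control 511 and 1 without KO 515 or with the muscle score. The riser was Smad1, a signal carrier downstream of BMP receptors (0.64, edgeR adjusted p = 0.0189), whose call ended without KO 513 or KO 516 (0.0504 and 0.0551).

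Of 15 junction partners 14 were tested, 3 rose and 0 fell (median 0.00026), while 5 rose with library sizes alone and 1 without KO 513, KO 515, KO 516 or control 517. Of all genes 15.4% were called higher, and 28.8% with library sizes alone. Magi1, a scaffold of tight and adherens junctions, held 20.1, 19.6, 20.9 and 19.6 CPM in KO libraries, against 13.5, 17.6, 13.7 and 15.5 CPM in control libraries. The groups did not overlap (log2 fold change 0.41, edgeR adjusted p = 0.0135), and it was called under all 16 alternatives. Jam3, a junctional adhesion molecule, rose by 0.42 (edgeR adjusted p = 0.0365). The edgeR call of Jam3 ended without KO 513, KO 515, KO 516, control 511 or control 517 (0.053 to 0.0988). Many cell types express these genes. At an unadjusted edgeR p under 0.05, 2 junction partners, 2 receptor partners and 0 arterial, tip cell or ligand genes were lower, and DESeq2 called 1 junction partner lower.

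Of 12 genes of endothelial lipid handling 4 fell and 0 rose by edgeR, by DESeq2, by limma-voom and at an unadjusted edgeR p under 0.05 (median 0.04). Of all genes edgeR called 18.9% lower, DESeq2 20.1% and limma-voom 20%. The balance turned with the scaling: 5 rose and 1 fell with library sizes alone, and 1 rose and 1 fell with upper quartile factors. Without control 511, 2 rose, and without KO 513 or KO 515, 2 fell. The 4 were Fabp4, Cd36, Car4 and Lpl, and Fabp4, Cd36 and Lpl are also abundant in adipocytes, whose marker list had 6 of 12 genes lower, and 3 without KO 513, KO 515 or control 517. Their part in the result was not tested. Cd36, a fatty acid transporter, held 2261 ± 74.8 CPM in KO and 2908 ± 330.1 CPM in control tissue (SD, n = 4 each; log2 fold change -0.36, edgeR adjusted p = 0.0156), and its call ended with upper quartile factors (0.0554) and with library sizes alone (0.218). Car4, a membrane carbonic anhydrase of capillaries, held 35.2, 35.9, 35.7 and 46.9 CPM in KO libraries, against 50.4, 49.0, 49.8 and 49.0 CPM in control libraries. No KO library of Car4 reached the control range, and KO 516 stood nearest to it (-0.37, edgeR adjusted p = 0.0187). The edgeR call of Car4 ended without KO 513 or KO 515 (0.0582 and 0.0549) and with upper quartile factors (0.072), library sizes alone (0.2) or the muscle score (0.104). That of Lpl ended with upper quartile factors (0.0879), with library sizes alone (0.251) and without KO 513, KO 515, KO 516, control 517 or control 518 (0.0647 to 0.076). Gpihbp1, the capillary anchor of lipoprotein lipase, named outside the rule, held 113 ± 14.8 CPM in KO and 95.6 ± 15.7 CPM in control tissue (SD, n = 4 each; 0.24, edgeR adjusted p = 0.191).

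The mural cells that wrap the vessels gave a mixed picture, with 1 of 12 pericyte and smooth muscle markers higher and 1 lower (median 0.14). Of all genes 15.4% were called higher and 18.9% lower. Cspg4, the NG2 proteoglycan of pericytes, held 90.3, 107, 129 and 120.2 CPM in KO libraries, against 214, 189, 171 and 177 CPM in control libraries. All KO libraries of Cspg4 were below all control libraries (-0.75 on the log2 scale with an SE of 0.119, edgeR adjusted p = 0.002), and it was called under all 16 alternatives. From the same list Pdgfrb, Rgs5, Abcc9, Kcnj8 and Higd1b, named outside the rule, had changes of 0.19, 0.16, 0.14, -0.01 and -0.33. None of these passed (edgeR adjusted p of 0.264 to 0.961), so the fall of Cspg4 does not stand for the list. Notch3, a receptor of mural cells, had a change of 0.31 (edgeR adjusted p = 0.0355), a call that ended without KO 513, KO 515, KO 516 or control 517 (0.0506 to 0.0966). The count of mural genes that rose was 3 with upper quartile factors and 5 with library sizes alone. Of 10 fibroblast markers 2 rose and 0 fell, but 1 rose without KO 515, KO 516, control 514, control 517 or control 518, with limma-voom or with the muscle score, and 4 with upper quartile factors or library sizes alone. Of 6 tested platelet and erythroid markers 1 rose and 0 fell, but 2 rose without KO 512, control 511 or control 517, with upper quartile factors or with DESeq2, and 4 with library sizes alone. The gene called with TMM factors was Itga2b, a platelet integrin, at 6.59 ± 0.719 CPM in KO and 2.72 ± 0.340 CPM in control tissue (SD, n = 4 each; 1.28, edgeR adjusted p = 0.000514). The other platelet genes did not pass with TMM factors, so Itga2b does not stand for them. Pf4 was at 0.62 (edgeR adjusted p = 0.0623) and was called under 5 of the 16 alternatives. Outside the rule, Gp1ba was at 0.36 (edgeR adjusted p = 0.428) and Ppbp at -0.64 (edgeR adjusted p = 0.379). Gp9 was too low to test.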

How the data were processed

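The 8 samples were Trizol-extracted total RNA sequenced with an Illumina protocol, per the labels' protocols. The submitters' processing notes name the mm10 build, TopHat2 (version 2), HOMER and edgeR. The estimated counts deposited by the authors came from HOMER's analyzeRepeats.pl over RefSeq exons on both strands without adjustment, per the file headers, so overlapping genes on opposite strands cannot be told apart. Of the values 36.9% were not whole, and all were rounded to whole numbers. The authors' deposited table also holds a scaled signal per library, a ratio (fold of KO over control), a log2 fold change, a log2 CPM, a p-value and an FDR, per the file headers.

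Of 30521 rows, 829 named no gene (0.0608% to 0.0824% of a library's counts) and were left out. The row with the highest total stood for a symbol. Genes passing filterByExpr with a minimum count of 10 entered the quasi-likelihood test of edgeR (4.0.16, under R 4.3.3) with TMM scaling and no covariate. The SE is the size of the log2 fold change divided by the square root of F. Alternatives used DESeq2 1.42.0, limma 3.58.1 (voom with sample weights), other scalings, no filter, the longest transcript, a muscle score as covariate (mean log2 CPM of the muscle list, prior count 2) and each library left out. On simulated counts, 50 changed genes per fold among 14088 genes of a simulated KO against control, the test recovered 2% of those changed 1.25-fold and 34% of those changed 1.5-fold. It recovered 72% for 2-fold changes and 98% for 4-fold changes, and made 4 false calls. The share of genes changed there was far below the 34.4% called in the data, which makes the adjusted threshold stricter. These recoveries need not hold for the data.

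The markers, lists and tests were chosen with earlier results of these data known. Of the list symbols 198 were matched directly, 4 by a RefSeq synonym and 1 not. Named were the 10 markers, Kdm1a, Ucp1, up to 4 genes with the smallest p of each other list, and the 5 genes most like the markers, with others marked as outside the rule. The text gives a selection of these, and 1 gene of the junction list is not reported here.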

Additional observations from a re-analysis of the deposited data

Results flagged for a closer look

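A library stood far from the other 3 of its group for 7 of 136 gene and group combinations tested over 68 genes, where chance flags about 5%. Among the endothelial markers, Kdr had 206 CPM in KO 516, against 257 to 261 CPM in the other KO libraries. Flt1 had 103 CPM in the same library, KO 516, against 112 to 114 CPM in the others. Tie1 had 136 CPM in KO 512, against 171 to 178 CPM in the other KO libraries. Emcn had 48.4 CPM in control 517, against 26.7 to 29.6 CPM in the other control libraries. Among the further genes, Car4 had 46.9 CPM in KO 516, against 35.2 to 35.9 CPM in the other KO libraries. Hey1, a Notch target gene of arteries, had 5.06 CPM in control 517, against 7.52 to 7.98 CPM in the other control libraries. Notch3 had 82.5 CPM in control 518, against 106 to 107 CPM in the other control libraries. With 4 libraries a group, each of these rests on a single library.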

How the results depend on the processing

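Esam and its direction were the same under the 16 alternatives run. The count of called genes was 4871, and 3161 once the muscle score was added. The count of called endothelial markers was 2, where 34.4% of all genes were called in either direction. It was 5 with library sizes alone (35.3% of all genes) and 1 with the muscle score (22.3%). It was 2 to 4 when each library was left out (24% to 33.2% of all genes), with 4 without KO 512 (29.2%). The median log2 fold change of the markers was 0.09, and 0.29 with library sizes alone. Library sizes alone moved the median of all genes as well. The TMM factors, which that fit leaves out, were 1.05 to 1.10 in KO and 0.898 to 0.961 in control libraries. The cause of these shifts was not tested. The sign of Tek turned with upper quartile factors (0.0806) and library sizes alone (0.176), and lay between -0.0722 (without control 511) and 0.0410 (without control 517) with a library left out. That of Eng turned with upper quartile factors (0.0659) and library sizes alone (0.165), and lay between -0.112 (without KO 515) and 0.0509 (without KO 512) with a library left out. Pdpn, of the lymphatic list, was at 0.29, and at -0.25 with the muscle score. No paired analysis was possible because the replicate numbers differ between KO and control mice. With 4 libraries a group, a p that missed the threshold does not show that a marker did not differ. The values relative to the marker mean were also computed with each library left out, an alternative chosen after seeing the data.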
